A study of Mus musculus with 24 samples.

Results

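Progenitor and hormone-sensing luminal cells were compared within terminal end buds (TEBs), the swollen growing tips of the pubertal mouse mammary ducts. The comparison rested on 8 of the 24 bulk RNA-seq libraries of the series, 4 per class, chosen by their tissue and sort labels. The progenitor class held luminal GFP+ TEB replicates 1 and 2, from mice with an Elf5-rtTA-IRES-GFP allele, and luminal YFP- TEB replicates 1 and 2, from mice with PR-cre and a Rosa26-LSL-eYFP allele. The hormone-sensing class held luminal GFP- TEB replicates 1 and 2 from the first of these models and luminal YFP+ TEB replicates 1 and 2 from the second. All 8 libraries came from pubertal mice, from microdissected TEBs and from the same luminal gate (lineage-negative, EpCAM+, low CD29). Values below follow these orders, so progenitor values run GFP+ 1, GFP+ 2, YFP- 1, YFP- 2 and hormone-sensing values run GFP- 1, GFP- 2, YFP+ 1, YFP+ 2.

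Each class was reporter-positive in one model and reporter-negative in the other, which separates the class from the reporter itself. GFP reports activity of the Elf5 locus at the time of sorting. YFP marks any cell in which the PR-cre allele was active at some time, in itself or in an ancestor, because the recombined Rosa26 allele is inherited. The GFP- and YFP- gates are defined by the lack of a signal and take up every other luminal cell, including cells in which a reporter failed. Nothing in the labels ties each library to an animal of its own, and libraries with the same model and replicate number may share a preparation. The p-values therefore measure the spread between these libraries.

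The luminal layer of the mammary gland holds one kind of cell with receptors for estrogen and progesterone and another kind largely without them. The receptor-bearing, hormone-sensing cells read the systemic hormones and pass the message on through secreted ligands such as amphiregulin, WNT4 and RANKL. Progenitor cells depend on the ETS factor ELF5, carry the receptor KIT and give rise to the milk-producing alveolar cells. In a TEB both lie in the inner body-cell mass, behind the outer cap cells.

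Total counts per library ran from 34344357 to 47669526, and 3 counts corresponded to 0.058 to 0.079 CPM (counts per 1000000, scaled by TMM, trimmed mean of M-values), which is the limit for a gene listed at 0. The first principal component of the 8 libraries held 73.2% of the variance and separated the classes. The next held 15.3% and separated the models. One library stood apart in its content: YFP- replicate 2 contained transcripts of stratified skin epithelium. Krt5, a keratin of basal cells and of skin, stood at 0.579, 0.814, 60.3 and 453 CPM in progenitor libraries, against 1.31, 1.92, 2.82 and 2.26 CPM in hormone-sensing libraries. Krt10, a keratin of differentiated epidermis, stood at 4.75, 2.85, 27.5 and 204 CPM in progenitor libraries, against 1.95, 2.49, 1.45 and 1.68 CPM in hormone-sensing libraries. Both were highest in YFP- replicate 2, and YFP- replicate 1 lay next. The 16 basal and myoepithelial markers summed to 242 to 1288 CPM in progenitor libraries, against 78.8 to 136 CPM in hormone-sensing libraries, and to between 8631 and 17400 CPM in the basal TEB libraries. The 15 keratinocyte markers summed to 65.5 to 615 CPM in progenitor libraries, against 19.3 to 51.7 CPM in hormone-sensing libraries. Their part in the gene differences was not tested beyond repeating the counts without YFP- replicate 2.

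The genes behind the reporters were read first, each tested only in the model whose sort did not use it. Elf5, an ETS transcription factor that luminal progenitors need to form alveoli, had 758, 697, 410.1 and 467 CPM in progenitor libraries, against 26.9, 28.1, 22.8 and 15.03 CPM in hormone-sensing libraries. In the PR-cre model, where the sort did not use Elf5, the log2 fold change (progenitor over hormone-sensing, here and throughout) was 4.52 ± 0.19 SE (edgeR quasi-likelihood F-test, adjusted p = 3.3e-07). Pgr, which encodes the progesterone receptor, had 48.02, 28.4, 39.4 and 20.9 CPM in progenitor libraries, against 447, 202, 351 and 332 CPM in hormone-sensing libraries. In the Elf5 model, where the sort did not use Pgr, its log2 fold change was -3.09 ± 0.56 SE (edgeR adjusted p = 0.0099). The 4 libraries of each class did not overlap for either gene. For Elf5 in the Elf5 model and Pgr in the PR-cre model this separation is no independent support, because the sort used the gene. In the model whose sort did not use the gene, no library's label went against it. In bulk samples, fewer cells of a type and less RNA per cell cannot be told apart, and this holds for every level below.

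The luminal classes of the TEB differed in most of the genes that could be tested. In a fit of the 8 libraries with the mouse model as a block, 8542 of 16256 tested genes (52.5%) passed edgeR's quasi-likelihood F-test at a Benjamini-Hochberg adjusted p under 0.05. Of these, 4387 (27%) were higher and 4155 (25.6%) lower in progenitor cells, and 2219 and 1761 of them differed more than 2-fold. The median log2 fold change over all tested genes was 0.04. Both models were then required to agree: 2667 genes (16.4%) were higher and 2682 (16.5%) lower in progenitor cells in the blocked fit and in each model alone, 1604 and 1333 of them by more than 2-fold. Whatever the test, the 4 libraries of each class did not overlap for 3573 genes (22%) that were higher and 3423 (21.1%) that were lower in progenitor cells. Without YFP- replicate 2, 16919 genes passed the low-count filter, and 4006 (23.7%) were higher and 4112 (24.3%) lower in the blocked fit. Of the 5349 agreeing genes, 5346 still passed that fit. In both models and the blocked fit together, 4759 of the 5349 still passed.

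The single-model contrasts gave similar counts. GFP+ against GFP- cells had 3594 genes higher and 3448 lower, and YFP- against YFP+ cells had 3904 higher and 3849 lower. Across genes, which are not independent replicates, the log2 fold changes of the models correlated with r = 0.70 (Pearson) and rho = 0.73 (Spearman). Of the genes called in the blocked fit, 49 had opposite signs in the models.

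**Figure D1:**
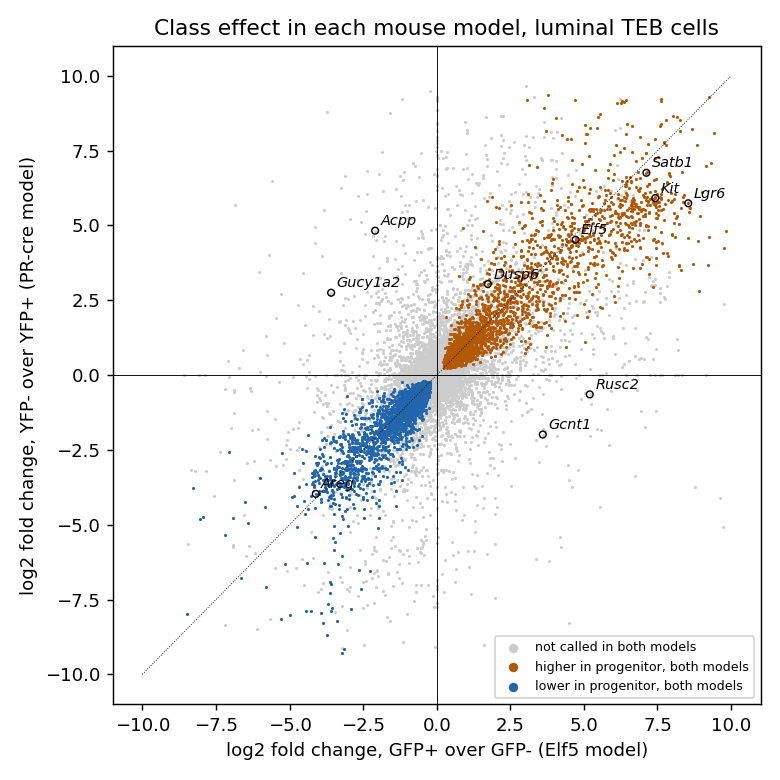
Log2 fold change of GFP+ over GFP- cells in the Elf5 model (x axis) and of YFP- over YFP+ cells in the PR-cre model (y axis), luminal TEB libraries, 2 against 2 per model. Each point is 1 gene. The 2667 genes higher in progenitor cells in both models lie at the upper right and the 2682 lower genes at the lower left. Genes named in the text are circled, and 31 genes beyond 10 on either axis are not drawn.

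Markers of the 2 luminal lineages moved together. Of 15 luminal progenitor markers, 14 were higher in progenitor cells in both models and none was lower, with a list median of 5.14 (log2) beside 0.04 over all genes. The 14 include Elf5, which the sort of the Elf5 model used, so its call in that model is no independent support. Kit, the receptor for stem cell factor, had 834, 773, 1233 and 1350.4 CPM in progenitor libraries, against 3.31, 5.93, 31.6 and 10.8 CPM in hormone-sensing libraries. Csn3, which encodes kappa-casein, had 1937, 1722, 1369 and 1149 CPM in progenitor libraries, against 11.8, 19.2, 25.2 and 9.96 CPM in hormone-sensing libraries. The classes did not overlap for either, and the log2 fold changes were 6.64 ± 0.56 SE and 6.51 ± 0.40 SE (edgeR adjusted p = 9.4e-05 and 1.7e-05). Within the low class, YFP+ replicate 1 had the highest level of both genes. Itga2, the integrin subunit CD49b used to sort luminal progenitors, differed less. It had 35.2, 24.6, 41.2 and 45.6 CPM in progenitor libraries, against 18.5, 16.8, 13.7 and 19.2 CPM in hormone-sensing libraries (log2 1.07 ± 0.18 SE, edgeR adjusted p = 0.00089). Lypd3 was the 1 marker of the list that did not pass, with a log2 value of 0.19 ± 0.27 SE (edgeR adjusted p = 0.59).

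Of 13 hormone-sensing markers that could be tested, 12 were lower in progenitor cells in both models and none was higher (list median -3.20). The 12 include Pgr, which drove the sort reporter of the PR-cre model, so its call in that model is no independent support. Tnfsf11, which encodes RANKL, and Calca were too low in all 8 libraries to be tested. Foxa1, a forkhead factor that opens chromatin for the estrogen receptor, had 46.01, 42.4, 63.8 and 29.7 CPM in progenitor libraries, against 532, 453, 505 and 555 CPM in hormone-sensing libraries. Cited1, a transcriptional co-regulator of estrogen signalling, had 42.2, 58.2, 62.4 and 32.9 CPM in progenitor libraries, against 645, 753, 681 and 569 CPM in hormone-sensing libraries. The classes did not overlap for either gene, and the log2 fold changes were -3.50 ± 0.23 SE and -3.77 ± 0.22 SE (edgeR adjusted p = 9e-06 and 4.2e-06). The marker that did not pass was Greb1, an estrogen-responsive gene. It had 0.0772, 0.102, 0.745 and 0.343 CPM in progenitor libraries, against 0.0256, 0, 4.75 and 2.65 CPM in hormone-sensing libraries, and so was detected in the hormone-sensing class mainly in the YFP+ libraries.

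**Figure D2:**
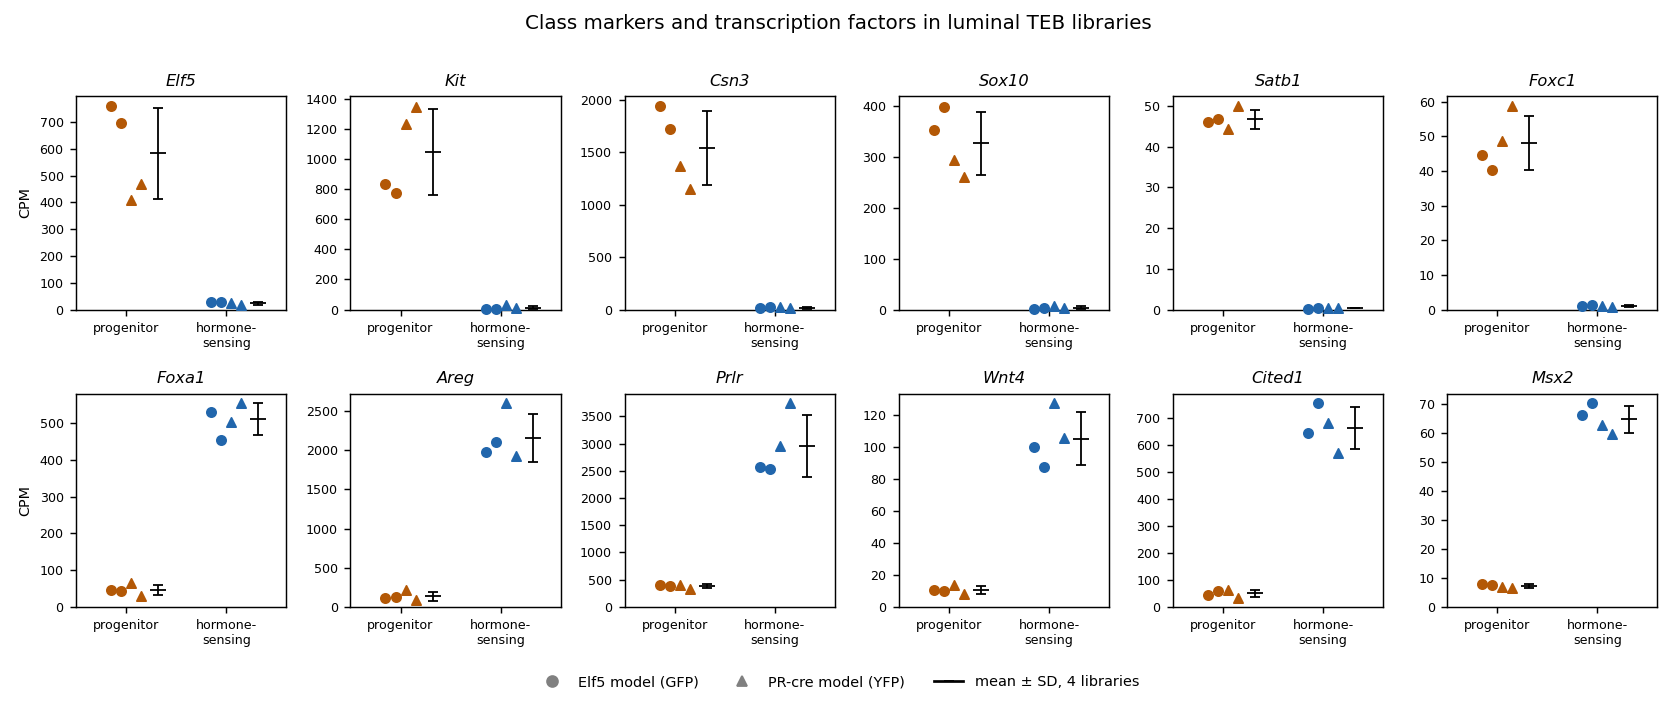
CPM (y axis, linear from 0) of 12 class markers and transcription factors in the 4 progenitor and the 4 hormone-sensing TEB libraries. Circles are Elf5-model and triangles PR-cre-model libraries, and bars give the mean ± SD of 4 libraries. The classes do not overlap in any panel: the first row is high in progenitor libraries and the second row in hormone-sensing libraries.

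The 12 genes furthest up in progenitor cells, among agreeing genes with no overlap and at least 10 CPM in the higher class, were Med12l, Klk10, Slc28a3, Mgam, Csn2, Tgfb2, Satb1, Csn1s1, Cnmd, Cldn1, Grik3 and St8sia6, with log2 fold changes from 6.77 to 7.49. Satb1, a chromatin organiser, had 46.1, 46.7, 44.3 and 49.9 CPM in progenitor libraries, against 0.205, 0.437, 0.462 and 0.392 CPM in hormone-sensing libraries (log2 6.93 ± 0.19 SE, edgeR adjusted p = 3.5e-08). The libraries of each class lay close together, and the single-model values were 7.12 in the Elf5 model and 6.76 in the PR-cre model. Slc28a3, a concentrative nucleoside transporter, had 493, 509, 90.5 and 123 CPM in progenitor libraries, against 1.67, 2.69, 1.58 and 0.899 CPM in hormone-sensing libraries (log2 7.19 ± 0.40 SE, edgeR adjusted p = 9.3e-06). Its GFP+ libraries lay above its YFP- libraries.

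Klk10 and Csn2 of the 12 were also uneven within the progenitor class. Klk10, a secreted serine protease, had 371, 428, 10.3 and 11.4 CPM in progenitor libraries, against 1.26, 2.93, 0.3301 and 0.0922 CPM in hormone-sensing libraries. Csn2, which encodes beta-casein, had 142, 64.5, 2.77 and 1.48 CPM in progenitor libraries, against 0.436, 0.547, 0.176 and 0.0692 CPM in hormone-sensing libraries. Tgfb2, a TGF-beta ligand, was even in that class, with 57.9, 48.3, 36.2 and 42.2 CPM in progenitor libraries, against 0.179, 0.131, 1.08 and 0.0922 CPM in hormone-sensing libraries, where YFP+ replicate 1 was highest. The log2 fold changes of these 3 genes were 7.20 ± 0.47 SE, 7.03 ± 0.78 SE and 6.93 ± 0.68 SE (edgeR adjusted p = 2.2e-05, 0.00033 and 0.00018). A lack of overlap between the classes was a condition for naming them. For Klk10 and Csn2 the GFP+ libraries were well above the YFP- libraries, yet the test of the model difference did not pass (adjusted p = 0.32 and 0.25). Cldn1, a tight junction claudin, had 274, 360.2, 149 and 231 CPM in progenitor libraries, against 1.102, 3.02, 3.04 and 1.43 CPM in hormone-sensing libraries (log2 6.81 ± 0.45 SE, edgeR adjusted p = 2.7e-05). The remaining members of the 12 were Mgam (maltase-glucoamylase), Csn1s1 (alpha-s1-casein), Cnmd (chondromodulin, which inhibits vessel growth), Grik3 (a kainate receptor subunit), St8sia6 (a sialyltransferase) and Med12l (a relative of the Mediator subunit MED12).

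By the same rule, the 12 genes furthest down in progenitor cells were Cacna2d3, Upk3a, Crym, Areg, Dcdc2a, Ptger3, Ndst4, Abcc8, R3hdml, Msc, Itih2 and Padi3, with log2 fold changes from -4.28 to -3.94. Areg encodes amphiregulin, the EGF receptor ligand through which estrogen drives duct growth. It had 117, 121, 212 and 80.3 CPM in progenitor libraries, against 1975, 2109, 2601 and 1932 CPM in hormone-sensing libraries (log2 -4.04 ± 0.31 SE, edgeR adjusted p = 3.7e-05). Abcc8, the sulfonylurea receptor subunit of ATP-sensitive potassium channels, had 4.26, 5.23, 5.41 and 2.85 CPM in progenitor libraries, against 75.6, 76.4, 64.6 and 66.4 CPM in hormone-sensing libraries (log2 -4.00 ± 0.18 SE, edgeR adjusted p = 2.8e-07). Abcc8 had nearly the same log2 value in the Elf5 model (-4.01) and in the PR-cre model (-3.99). The lack of overlap between the classes was again a condition for naming these genes.

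Crym, a thyroid hormone-binding protein of the cytosol, had 28.6, 21.96, 15.1 and 10.5 CPM in progenitor libraries, against 438, 333, 165 and 318 CPM in hormone-sensing libraries. Ptger3, the prostaglandin E receptor EP3, had 0.868, 0.976, 2.73 and 1.19 CPM in progenitor libraries, against 17.2, 22.5, 23.6 and 25.6 CPM in hormone-sensing libraries. Upk3a, a uroplakin of the urothelial surface, had 13.7, 17.2, 113 and 38.4 CPM in progenitor libraries, against 375, 406, 1015 and 1006 CPM in hormone-sensing libraries. The log2 fold changes were -4.09 ± 0.27 SE, -4.03 ± 0.29 SE and -4.20 ± 0.40 SE (edgeR adjusted p = 1.4e-05, 4.4e-06 and 0.00017). Msc, the bHLH repressor musculin, had 0.154, 0.6101, 2.64 and 1.002 CPM in progenitor libraries, against 3.61, 4.68, 35.7 and 37.3 CPM in hormone-sensing libraries, where the YFP+ libraries were the higher. Itih2 (a hyaluronan-binding heavy chain), Padi3 (a protein deiminase), Ndst4 (a heparan sulfate sulfotransferase), Dcdc2a (a doublecortin-domain protein), Cacna2d3 (a calcium channel auxiliary subunit) and R3hdml complete the 12.

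Promoter sequences (RefSeq, GRCm38.p6, 250 bases before to 50 after the first listed start) are shown for genes at either end of the comparison, with the letters of a transcription factor motif in capitals. Slc28a3 (high in progenitor cells, chr13:58610828-58611127, minus strand) and Areg (high in hormone-sensing cells, chr5:91139349-91139648, plus strand) each hold the ETS core GGAAGT once, read on either strand. Foxa1 (chr12:57546062-57546361, minus strand) holds 1 forkhead motif, TGTTTAC, on the opposite strand.
Slc28a3: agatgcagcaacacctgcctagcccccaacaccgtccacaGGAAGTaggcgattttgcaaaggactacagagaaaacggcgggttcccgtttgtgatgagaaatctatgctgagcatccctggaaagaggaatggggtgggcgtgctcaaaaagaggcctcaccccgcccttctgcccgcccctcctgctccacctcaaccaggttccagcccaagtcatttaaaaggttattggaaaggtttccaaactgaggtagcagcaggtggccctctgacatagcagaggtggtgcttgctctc
Areg: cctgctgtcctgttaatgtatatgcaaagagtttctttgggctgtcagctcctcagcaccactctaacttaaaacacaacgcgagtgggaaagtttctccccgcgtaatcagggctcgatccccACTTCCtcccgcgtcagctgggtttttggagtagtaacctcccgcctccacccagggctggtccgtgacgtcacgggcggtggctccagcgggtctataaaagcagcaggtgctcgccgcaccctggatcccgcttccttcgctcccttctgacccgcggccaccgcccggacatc
Foxa1: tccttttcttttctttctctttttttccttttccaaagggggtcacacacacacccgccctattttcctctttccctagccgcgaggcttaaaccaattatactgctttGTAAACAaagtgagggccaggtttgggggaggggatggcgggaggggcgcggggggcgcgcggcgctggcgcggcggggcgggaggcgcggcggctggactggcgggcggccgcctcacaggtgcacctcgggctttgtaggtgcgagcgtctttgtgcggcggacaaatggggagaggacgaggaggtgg
A promoter was found for 12035 of the 16256 tested genes, 2054 of the 2667 higher and 2075 of the 2682 lower genes. GGAAGT, searched on both strands, lay in 20.8% of the promoters of the higher genes, in 27.5% of those of the lower genes and in 27.1% of all. TGTTTAC lay in 2.63%, 2.7% and 2.55% in the same order, the GATA motif AGATAA in 4.97%, 6.55% and 6.56%, and the SOX motif CATTGTT in 2.43%, 1.83% and 1.98%. The palindromic estrogen response element, searched with any 3 bases as its spacer, lay in 2 of the 12035 promoters. These letter matches are descriptions and were not tested.

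The directions differed in size more than in number. Among agreeing genes with at least 10 CPM in the higher class, 297 of 2083 genes (14.3%) were over 16-fold higher in progenitor cells, whereas 8 of 2283 (0.35%) were over 16-fold lower. Past 64-fold there were 98 higher genes and 0 lower genes. The 12 named genes high in progenitor cells kept a median of 0.744% of their progenitor level in hormone-sensing TEB libraries, against 3.72% for the same genes in ducts. The duct value was 2.64% without luminal GFP- duct replicate 2, the library rich in basal and keratinocyte transcripts described below, an alternative chosen after seeing the data. The 12 named genes high in hormone-sensing cells kept a median of 6.22% of their hormone-sensing level in progenitor TEB libraries, against 4.06% in ducts, or 4.52% without that library. Because the genes were named for their size in TEBs, these medians describe the libraries and were not tested.

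Lineage transcription factors split between the classes. Of 34 tested, 17 were higher in progenitor cells and 12 lower, against 27% and 25.6% of all genes. In both models the counts were 15 and 11, and the list median was 0.38. The higher counts include Elf5, which the sort of the Elf5 model used. Among the higher ones, Sox10, a SOX factor of neural crest and mammary stem and progenitor cells, had 353, 399, 293 and 260.5 CPM in progenitor libraries, against 0.871, 2.97, 7.53 and 2.44 CPM in hormone-sensing libraries (log2 6.61 ± 0.64 SE, edgeR adjusted p = 0.0002). Foxc1, a forkhead factor of basal-like breast cancer, had 44.6, 40.3, 48.8 and 58.6 CPM in progenitor libraries, against 0.948, 1.36, 0.924 and 0.622 CPM in hormone-sensing libraries (log2 5.62 ± 0.24 SE, edgeR adjusted p = 2.1e-07). Bcl11a, a zinc finger repressor needed for luminal progenitors, had 17.96, 16.1, 37.4 and 37.5 CPM in progenitor libraries, against 0.0769, 0.109, 0.968 and 0.5303 CPM in hormone-sensing libraries (log2 6.18 ± 0.35 SE, edgeR adjusted p = 1.4e-06). No class overlapped for these factors, and YFP+ replicate 1 again had the highest hormone-sensing value of Sox10 and Bcl11a.

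Epithelial ETS factors did not move as a group. Ehf was higher with Elf5, at 799, 709.8, 862 and 878 CPM in progenitor libraries, against 93.5, 111, 91.1 and 69.1 CPM in hormone-sensing libraries (log2 3.15 ± 0.15 SE, edgeR adjusted p = 4.1e-07). Elf3 and Spdef were lower. Elf3 had 77.4, 85.3, 113 and 93.9 CPM in progenitor libraries, against 125, 137, 178 and 159 CPM in hormone-sensing libraries (log2 -0.70 ± 0.08 SE, edgeR adjusted p = 7.5e-05). Spdef, a factor of secretory differentiation, had 2.58, 2.58, 3.87 and 3.74 CPM in progenitor libraries, against 11.2, 12.9, 24.2 and 22.7 CPM in hormone-sensing libraries (log2 -2.43 ± 0.14 SE, edgeR adjusted p = 1.1e-06). SOX factors were likewise divided: Sox9, a factor of luminal and stem cells, had 122, 163, 206 and 204 CPM in progenitor libraries, against 396, 465, 608 and 725 CPM in hormone-sensing libraries, the reverse of Sox10 (log2 -1.66 ± 0.11 SE, edgeR adjusted p = 2.4e-06).

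The T-box factor Tbx3 and the homeobox factor Msx2 marked the hormone-sensing side. Msx2 had 7.697, 7.505, 6.75 and 6.46 CPM in progenitor libraries, against 66.3, 70.5, 62.8 and 59.6 CPM in hormone-sensing libraries (log2 -3.20 ± 0.08 SE, edgeR adjusted p = 3e-08). Tbx3, which mammary bud formation requires, had 13.2, 17.1, 45.8 and 40.8 CPM in progenitor libraries, against 90.8, 127, 226 and 228 CPM in hormone-sensing libraries (log2 -2.63 ± 0.15 SE, edgeR adjusted p = 1.5e-06). Both kept the classes apart, Msx2 with little spread inside either. Gata3, a master factor of luminal fate, differed little: its log2 fold change was -0.74 ± 0.11 SE (edgeR adjusted p = 0.00048) over 85.9, 86.7, 119 and 95.7 CPM in progenitor libraries, against 130.4, 120.1, 180.4 and 226 CPM in hormone-sensing libraries.

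Receptors for steroid hormones and their cofactors went both ways. Of 17 tested members, 6 were higher and 7 lower, against 27% and 25.6% of all genes. The lower ones include Pgr, which drove the sort reporter of the PR-cre model. Esr1, which encodes estrogen receptor alpha, had 40.2, 40.9, 32.8 and 24.8 CPM in progenitor libraries, against 117, 139.8, 183 and 159 CPM in hormone-sensing libraries (log2 -2.12 ± 0.20 SE, edgeR adjusted p = 6e-05). The progenitor libraries thus held a larger part of the hormone-sensing level for Esr1 than for Pgr. The class effect on Esr1 was smaller in the Elf5 model (-1.67) than in the PR-cre model (-2.58), and that difference passed its own test (log2 0.91 ± 0.20 SE, edgeR adjusted p = 0.038). It did not pass under 6 of 13 alternative settings, where the adjusted p reached 0.14. Vdr, the vitamin D receptor, ran the other way, with 164, 172, 125 and 131 CPM in progenitor libraries, against 32.5, 32.2, 26.98 and 29.9 CPM in hormone-sensing libraries (log2 2.26 ± 0.08 SE, edgeR adjusted p = 5.9e-08). Tfap2c, an AP-2 factor that acts with the estrogen receptor in breast cancer cells, was also higher in progenitor libraries, at 147, 166, 178 and 158 CPM, against 11.4, 12.7, 10.1 and 7.05 CPM in hormone-sensing libraries (log2 3.99 ± 0.16 SE, edgeR adjusted p = 2.3e-07). The receptor coactivator Ncoa1 had a log2 fold change of 1.35 ± 0.08 SE (edgeR adjusted p = 1.5e-06).

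The called paracrine ligands of hormone-sensing cells were lower in progenitor cells, while receptors for such ligands went both ways, more often higher. Of 10 tested ligands, 4 (Areg, Btc, Wnt4 and Wnt5a) were lower in progenitor cells, in both models, against 25.6% of all genes, 0 were higher and 6 were not called (list median -0.66). Of 18 tested receptors and partners, 12 were higher and 5 lower (10 and 3 in both models), against 27% and 25.6% of all genes (list median 2.58). Beside Areg, Wnt4, the ligand through which progesterone acts on neighbouring cells, had 10.4, 9.99, 13.4 and 7.96 CPM in progenitor libraries, against 99.9, 87.5, 127 and 106 CPM in hormone-sensing libraries (log2 -3.33 ± 0.16 SE, edgeR adjusted p = 5.1e-07). Wnt5a, a non-canonical WNT ligand that restrains branching, had 87.6, 77.996, 71.4 and 23.05 CPM in progenitor libraries, against 1096, 1053, 502 and 561 CPM in hormone-sensing libraries (log2 -3.61 ± 0.34 SE, edgeR adjusted p = 0.00014). Btc, which encodes the EGF receptor ligand betacellulin, had a log2 fold change of -1.38 ± 0.23 SE (edgeR adjusted p = 0.0015). Neither WNT ligand overlapped between the classes, and Wnt5a was higher in the GFP- than in the YFP+ libraries. The chemokine Cxcl12 had 12.8, 10.8, 9.01 and 13.4 CPM in progenitor libraries, against 9.25, 1.14, 20.4 and 15.4 CPM in hormone-sensing libraries, which overlapped (edgeR adjusted p = 0.8). Igf1 lay at 0.0852 to 1.11 CPM in progenitor libraries and 0.04402 to 0.589 CPM in hormone-sensing libraries and did not pass either (edgeR adjusted p = 0.63).

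On the receptor side, Egfr, which binds amphiregulin, had 61.96, 64.3, 92.1 and 111 CPM in progenitor libraries, against 1.51, 1.22, 2.33 and 0.807 CPM in hormone-sensing libraries (log2 5.77 ± 0.30 SE, edgeR adjusted p = 2.2e-06). Tnfrsf11a, which encodes the RANKL receptor RANK, had 38.5, 29.8, 32.7 and 39.7 CPM in progenitor libraries, against 3.31, 2.87, 3.81 and 4.27 CPM in hormone-sensing libraries (log2 3.31 ± 0.15 SE, edgeR adjusted p = 2e-07). Both receptors kept the classes apart by a wide margin, although the ligand gene of RANK was itself too low to test. Lgr4, an R-spondin receptor that amplifies WNT signals, had 77.6, 76.8, 87.5 and 105 CPM in progenitor libraries, against 12.8, 9.82, 19.7 and 20.3 CPM in hormone-sensing libraries (log2 2.51 ± 0.14 SE, edgeR adjusted p = 6.8e-07). Igf1r, the receptor for insulin-like growth factors, had 92.2, 98.5, 111 and 132 CPM in progenitor libraries, against 0.769, 1.12, 3.499 and 1.91 CPM in hormone-sensing libraries (log2 5.98 ± 0.32 SE, edgeR adjusted p = 3.4e-06).

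The EGF family went both ways, with 5 of 15 tested members higher and 8 lower, against 27% and 25.6% of all genes. Of its ligands, 3 were higher and 6 lower, and of its 4 receptors, 2 were higher and 2 lower. Nrg1, which encodes a neuregulin, was among the higher ligands, at 0.309, 1.44, 1.09 and 0.8702 CPM in progenitor libraries, against 0, 0.109, 0.02201 and 0.0461 CPM in hormone-sensing libraries (log2 4.27 ± 0.90 SE, edgeR adjusted p = 0.0032). It was a low transcript in both classes, and its class effect was called in each model. The ligands Epgn (epigen) and Tgfa (transforming growth factor alpha) were lower, as were Areg and Btc. Epgn had 12.6, 14.9, 10.9 and 16.6 CPM in progenitor libraries, against 94.8, 98.4, 98.998 and 69.2 CPM in hormone-sensing libraries (log2 -2.72 ± 0.16 SE, edgeR adjusted p = 1.7e-06). Tgfa had 22.6, 26.97, 20.03 and 22.4 CPM in progenitor libraries, against 57.1, 57.7, 51.1 and 49.4 CPM in hormone-sensing libraries (log2 -1.24 ± 0.09 SE, edgeR adjusted p = 3.3e-06). Among the receptors, Erbb4, which binds neuregulins and is needed for lactation, lay with Egfr, at 6.15, 10.9, 18.1 and 22.8 CPM in progenitor libraries, against 0.179, 0, 0.682 and 0.161 CPM in hormone-sensing libraries (log2 5.92 ± 0.61 SE, edgeR adjusted p = 9.6e-05). Erbb2, the partner receptor without a ligand of its own, was lower, at 94.1, 112, 101 and 99.4 CPM in progenitor libraries, against 219, 232, 177 and 188 CPM in hormone-sensing libraries (log2 -1.01 ± 0.08 SE, edgeR adjusted p = 1e-05). Erbb3 was nearly level, with a log2 fold change of -0.20 ± 0.07 SE (edgeR adjusted p = 0.041) that passed neither model alone nor the fit with replicate number as a block (adjusted p = 0.058).

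**Figure D3:**
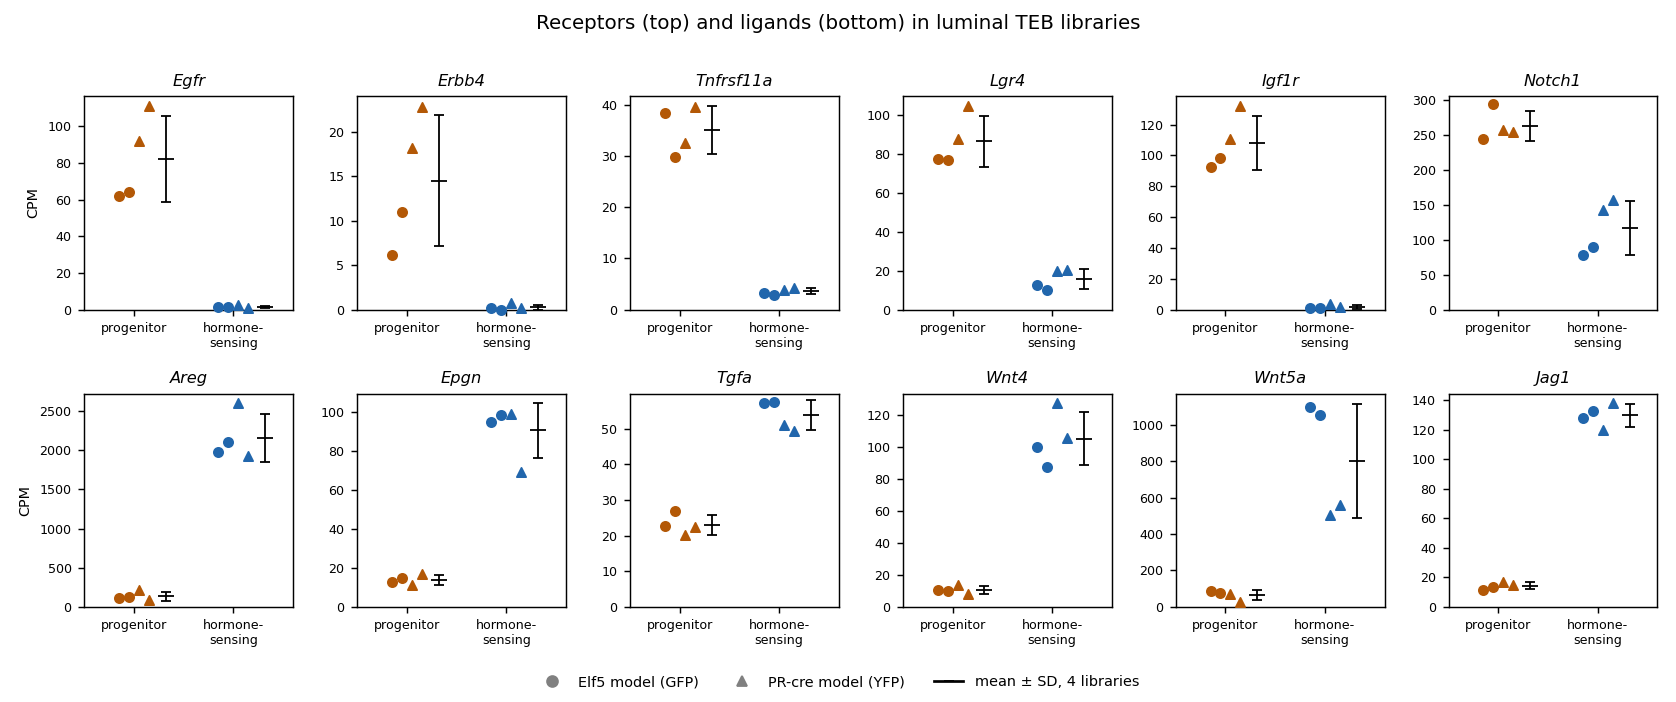
CPM (y axis, linear from 0) of 6 receptor genes (first row) and 6 ligand genes (second row) in the 4 progenitor and the 4 hormone-sensing TEB libraries. Circles are Elf5-model and triangles PR-cre-model libraries, and bars give the mean ± SD of 4 libraries. Every receptor shown is higher in the progenitor libraries and every ligand shown in the hormone-sensing libraries, with no overlap; the genes shown were chosen after their values were seen, and other ligands and receptors ran the other way.

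WNT pathway genes were mixed. Of 19 tested members, 11 were higher and 4 lower (7 and 3 in both models), against 27% and 25.6% of all genes. Without YFP- replicate 2, 8 were higher and 4 lower. Wnt5b stood opposite Wnt5a, at 103, 112, 143 and 141 CPM in progenitor libraries, against 0.641, 1.16, 4.34 and 1.71 CPM in hormone-sensing libraries (log2 6.10 ± 0.42 SE, edgeR adjusted p = 2.8e-05). Wnt7b lay with Wnt4, at 21.4, 30.3, 26.8 and 22.5 CPM in progenitor libraries, against 134, 163, 110.0 and 112 CPM in hormone-sensing libraries (log2 -2.36 ± 0.14 SE, edgeR adjusted p = 1.2e-06). Lgr6, a relative of Lgr4, had 114, 109.9, 91.8 and 102 CPM in progenitor libraries, against 0.308, 0.284, 2.35 and 1.22 CPM in hormone-sensing libraries (log2 6.76 ± 0.59 SE, edgeR adjusted p = 0.0001). Its YFP+ libraries lay above its GFP- libraries, and the model difference passed its test (log2 2.80 ± 0.39 SE, edgeR adjusted p = 0.0067) and did so under 13 of 13 alternative settings.

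Notch pathway genes were more often higher than lower, and the ligands went both ways. Of 21 tested members, 13 were higher and 3 lower (list median 0.96), against 27% and 25.6% of all genes. Jag1, a Notch ligand, had 11.4, 13.6, 16.99 and 14.5 CPM in progenitor libraries, against 128, 132, 120.1 and 138 CPM in hormone-sensing libraries (log2 -3.22 ± 0.11 SE, edgeR adjusted p = 6.9e-08). The ligands Dll1 and Jag2 were higher in progenitor cells. Dll1 had 3.395, 3.93, 1.21 and 3.19 CPM in progenitor libraries, against 0.128, 0.0437, 0.08804 and 0.323 CPM in hormone-sensing libraries (log2 4.30 ± 0.65 SE, edgeR adjusted p = 0.00044). Jag2 had 2.296, 2.502, 3.49 and 11.9 CPM in progenitor libraries, with YFP- replicate 2 far above the others, against 1.204, 0.9405, 1.08 and 1.36 CPM in hormone-sensing libraries (log2 1.91 ± 0.46 SE, edgeR adjusted p = 0.0065), and it did not pass in the Elf5 model alone (adjusted p = 0.11). Lfng, a glycosyltransferase that tunes which ligands Notch receptors answer to, had 2.18, 2.62, 2.02 and 1.503 CPM in progenitor libraries, against 13.4, 14.2, 15.9 and 15.1 CPM in hormone-sensing libraries (log2 -2.83 ± 0.19 SE, edgeR adjusted p = 2.5e-06). The classes stood clear of each other for these 4 genes. Notch1 had 244, 294, 257 and 254 CPM in progenitor libraries, against 77.7, 89.5, 142 and 156 CPM in hormone-sensing libraries (log2 1.22 ± 0.19 SE, edgeR adjusted p = 0.00082). Its class effect was larger in the Elf5 model (1.68) than in the PR-cre model (0.77; model difference adjusted p = 0.015). Notch3 did not pass (log2 0.04 ± 0.08 SE, edgeR adjusted p = 0.7).

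Genes that Notch signalling is known to switch on in other tissues were higher in progenitor cells in part, and Hes1 among them overlapped between the classes. Hey1, a repressor of the Hairy family, had 76.8, 60.6, 142 and 125 CPM in progenitor libraries, against 2.56, 1.3998, 4.53 and 2.88 CPM in hormone-sensing libraries (log2 5.14 ± 0.21 SE, edgeR adjusted p = 3.1e-07). Nrarp, a feedback inhibitor of Notch, had 26.6, 20.5, 47.99 and 35.6 CPM in progenitor libraries, against 9.35, 8.57, 14.4 and 15.8 CPM in hormone-sensing libraries (log2 1.42 ± 0.13 SE, edgeR adjusted p = 1.6e-05). Dtx1, a ubiquitin ligase of the pathway, had 4.65, 7.73, 3.2999 and 4.06 CPM in progenitor libraries, against 0.103, 0.481, 0.242 and 0.277 CPM in hormone-sensing libraries (log2 4.09 ± 0.45 SE, edgeR adjusted p = 5.5e-05). No class overlapped for these 3 genes. Hey2 had 3.36, 5.35, 7.004 and 5.25 CPM in progenitor libraries, against 0, 0, 0.2201 and 0 CPM in hormone-sensing libraries, so it was seen in a single hormone-sensing library. Heyl, a further relative, had 4.63, 4.41, 3.704 and 4.98 CPM in progenitor libraries, against 1.13, 1.42, 0.264 and 0.761 CPM in hormone-sensing libraries (log2 2.42 ± 0.40 SE, edgeR adjusted p = 0.00079). Hes1, the best-known target, had 96.8, 111, 149.7 and 138 CPM in progenitor libraries, against 75.4, 111, 79.7 and 74.6 CPM in hormone-sensing libraries (log2 0.52 ± 0.18 SE, edgeR adjusted p = 0.039). Its GFP+ replicate 1 lay below GFP- replicate 2, its class effect did not pass in the Elf5 model alone, and its call was lost under 7 of 15 alternative settings. Hes6, of the same family, was lower, at 19.8, 18.02, 10.8 and 7.28 CPM in progenitor libraries, against 25.6, 22.2, 20.4 and 19.1 CPM in hormone-sensing libraries (log2 -0.74 ± 0.19 SE, edgeR adjusted p = 0.0085), and did not pass in the Elf5 model alone.

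FGF signalling genes went both ways, with 8 of 17 tested members higher and 6 lower, against 27% and 25.6% of all genes. Fgfr2, the receptor needed for TEB growth, had 123, 134, 105 and 66.9 CPM in progenitor libraries, against 1188, 1262, 1037 and 1135 CPM in hormone-sensing libraries (log2 -3.47 ± 0.16 SE, edgeR adjusted p = 3.8e-07). Etv5, Spry2 and Dusp6, which receptor tyrosine kinase signalling through ERK switches on, were higher in progenitor cells. Spry2 had 93.7, 129, 65.1 and 77.8 CPM in progenitor libraries, against 13.7, 13.4, 12.7 and 14.9 CPM in hormone-sensing libraries (log2 2.70 ± 0.17 SE, edgeR adjusted p = 2.9e-06). Etv5 had 98.6, 76.6, 112 and 76.9 CPM in progenitor libraries, against 22.3, 17.7, 13.6 and 11.2 CPM in hormone-sensing libraries (log2 2.52 ± 0.22 SE, edgeR adjusted p = 2.8e-05). Dusp6 had 407, 394, 423 and 506 CPM in progenitor libraries, against 112, 127, 55.4 and 56.4 CPM in hormone-sensing libraries (log2 2.39 ± 0.28 SE, edgeR adjusted p = 0.00031). All 3 kept the classes apart, and the class effect on Dusp6 was larger in the PR-cre model (3.04) than in the Elf5 model (1.74; model difference adjusted p = 0.002).

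Guidance genes, first known from axons and active in TEB layering, had 11 of 20 tested members higher and 5 lower (7 and 5 in both models). The shares of all genes were 27% and 25.6% in the blocked fit. Ntn1, which encodes netrin 1, had 301, 319.6, 394 and 317 CPM in progenitor libraries, against 1.31, 2.03, 8.94 and 3.92 CPM in hormone-sensing libraries (log2 6.55 ± 0.51 SE, edgeR adjusted p = 6.1e-05). Its receptors Unc5b and Neo1 (neogenin) were higher in the same class, with log2 fold changes of 3.42 ± 0.26 SE and 1.51 ± 0.09 SE (edgeR adjusted p = 9.9e-06 and 1e-06). Slit2 and its receptor Robo1 were both lower in progenitor cells. Robo1 had 7.79, 9.82, 23.2 and 19.1 CPM in progenitor libraries, against 90.7, 97.5, 91.8 and 104 CPM in hormone-sensing libraries (log2 -2.81 ± 0.26 SE, edgeR adjusted p = 6e-05). Slit2 had 1.04, 1.28, 1.28 and 0.686 CPM in progenitor libraries, against 5.71, 8.05, 7.703 and 6.59 CPM in hormone-sensing libraries (log2 -2.72 ± 0.27 SE, edgeR adjusted p = 2.6e-05). Neither Slit2 nor Robo1 overlapped between the classes, and the netrin genes named here lay on the opposite side.

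Prolactin and growth hormone receptors were also divided. Prlr, the prolactin receptor, had 404, 387, 404 and 332 CPM in progenitor libraries, against 2569, 2528, 2959 and 3751 CPM in hormone-sensing libraries (log2 -2.95 ± 0.14 SE, edgeR adjusted p = 2.7e-07). Ghr, the growth hormone receptor, had 55.4, 56.3, 70.1 and 65.1 CPM in progenitor libraries, against 9.098, 7.35, 7.09 and 7.26 CPM in hormone-sensing libraries (log2 2.99 ± 0.12 SE, edgeR adjusted p = 1.5e-07). Of 12 tested members of the prolactin, growth hormone and STAT5 list, 2 were higher and 8 lower (list median -1.03). Of all genes, 27% were higher and 25.6% lower. Stat5a, the transcription factor downstream of both receptors, had 173, 118, 167 and 148 CPM in progenitor libraries, against 154, 93.6, 392 and 240.0 CPM in hormone-sensing libraries, which overlapped (edgeR adjusted p = 0.37). Its feedback target Cish was lower in progenitor cells, with a log2 fold change of -1.19 ± 0.13 SE (edgeR adjusted p = 4.9e-05). Socs2, another such target, passed narrowly (log2 -0.95 ± 0.33 SE, edgeR adjusted p = 0.043), with 8.57, 6.49, 16.2 and 12.5 CPM in progenitor libraries overlapping 28.2, 22.96, 16.1 and 15.1 CPM in hormone-sensing libraries. It missed the threshold in the fit with replicate number as a block (adjusted p = 0.083). The class effect on Socs2 differed between the models (difference -1.64, edgeR adjusted p = 0.011), and its YFP- and YFP+ libraries overlapped.

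Milk protein and milk fat genes were higher in progenitor cells of these pubertal TEBs in 14 of 15 tested members, with none lower and a list median of 6.23. Lalba, which encodes the lactose synthase subunit alpha-lactalbumin, had 105, 67.4, 9.67 and 16.7 CPM in progenitor libraries, against 0.538, 1.903, 0.3301 and 0.277 CPM in hormone-sensing libraries (log2 5.86 ± 0.45 SE, edgeR adjusted p = 3.1e-05). Btn1a1, butyrophilin of the milk fat globule, had 169, 158, 45.2 and 80.9 CPM in progenitor libraries, against 1.41, 1.82, 1.94 and 2.21 CPM in hormone-sensing libraries (log2 5.77 ± 0.44 SE, edgeR adjusted p = 5e-05). The classes were clear of each other, and for both genes the GFP+ libraries were the highest. Wap, the whey acidic protein of late pregnancy and lactation, was seen in the GFP+ libraries at 2.68 and 2.12 CPM, against 0.0213 and 0 CPM in YFP- libraries, and was at 0 in each of the 4 hormone-sensing libraries. Mucosal defence genes had 10 of 15 tested members higher and 3 lower, against 27% and 25.6% of all genes. Summed, this list overlapped between the classes, at 3112 to 4028 CPM in progenitor libraries, against 2586 to 6484 CPM in hormone-sensing libraries. The YFP+ libraries (6484 and 4986 CPM) lay above the YFP- libraries (3310 and 3112 CPM), so the sum was not a trait of the progenitor class. Ltf, which encodes the iron-binding lactoferrin, had 709, 903, 182 and 187 CPM in progenitor libraries, against 1.72, 6.23, 5.24 and 2.81 CPM in hormone-sensing libraries (log2 6.58 ± 0.69 SE, edgeR adjusted p = 0.00028). Pigr, the receptor that carries IgA into secretions, had 19.7, 18.3, 8.11 and 10.1 CPM in progenitor libraries, against 0.538, 0.9405, 0.374 and 0.0922 CPM in hormone-sensing libraries (log2 4.91 ± 0.35 SE, edgeR adjusted p = 3.3e-06).

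Luminal keratins were for the most part lower in progenitor cells, in 6 of 8 tested members, against 25.6% of all genes. Krt7 had 278, 327, 302 and 199 CPM in progenitor libraries, against 1235, 1251, 1434 and 1212 CPM in hormone-sensing libraries (log2 -2.23 ± 0.15 SE, edgeR adjusted p = 2.8e-06). The main pair of simple epithelia, Krt8 and Krt18, differed less, with log2 fold changes of -0.92 ± 0.16 SE and -0.97 ± 0.13 SE (edgeR adjusted p = 0.0014 and 0.00018). Krt8 had 2771, 3779.7, 2126 and 1584 CPM in progenitor libraries, against 4969, 5241, 4716 and 3708 CPM in hormone-sensing libraries, so GFP+ replicate 2 reached just above YFP+ replicate 2. Krt6a, a keratin of TEB body cells, had 21.6, 32.5, 45.03 and 34.5 CPM in progenitor libraries, against 281, 382, 534 and 321 CPM in hormone-sensing libraries (log2 -3.53 ± 0.23 SE, edgeR adjusted p = 9.4e-06). Its reads may be shared with the near-identical Krt6b. Among claudins, Cldn10 stood opposite Cldn1, at 24.2, 22.3, 15.2 and 6.78 CPM in progenitor libraries, against 126, 126, 125 and 119 CPM in hormone-sensing libraries (log2 -2.95 ± 0.31 SE, edgeR adjusted p = 0.00021). Cdh1, E-cadherin, did not pass (log2 -0.13 ± 0.09 SE, edgeR adjusted p = 0.25).

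Cell cycle genes differed by small amounts, and most of those called were higher in progenitor cells. Of 24 S phase genes, 10 were higher in progenitor cells and 0 lower, against 27% and 25.6% of all genes, with a median of 0.37. With replicate number as a block, 16 were higher and 1 lower. Summed, these S phase genes had 2414, 1754, 2682 and 2365 CPM in progenitor libraries, against 1848, 1394, 2093 and 1952 CPM in hormone-sensing libraries. The classes overlapped, but in 4 of 4 pairs of the same model and replicate number the progenitor library was the higher one. Of 24 G2 and M phase genes, 6 were higher and 1 lower, with a median of 0.26, so the higher count lay near the share of all genes. These G2 and M phase genes had counts of 10 and 1 with the block, and 4 and 1 without YFP- replicate 2. Their sums were 2697, 2088, 4113 and 4178 CPM in progenitor libraries, against 2451, 1857, 2892 and 2597 CPM in hormone-sensing libraries, again higher in 4 of 4 pairs and highest in both YFP- libraries. Mki67, the proliferation antigen, had 601, 477, 1098 and 1221 CPM in progenitor libraries, against 452, 342, 566 and 535 CPM in hormone-sensing libraries (log2 0.75 ± 0.15 SE, edgeR adjusted p = 0.0029). Its YFP- libraries were the highest, and GFP+ replicate 2 lay below both YFP+ libraries. The call was lost in the fit of 12 group means over all 24 libraries (adjusted p = 0.16). Mcm2, a subunit of the replicative helicase, and Ccnd1, cyclin D1, did not pass (edgeR adjusted p = 0.51 and 0.5). Of 12 D cyclins and CDK inhibitors with their kinases, 2 were higher and 4 lower, against 27% and 25.6% of all genes (median -0.04). Cdk6, a kinase of cell cycle entry, had 23.2, 22.6, 19.5 and 27.98 CPM in progenitor libraries, against 1.97, 3.48, 2.42 and 2.17 CPM in hormone-sensing libraries (log2 3.21 ± 0.21 SE, edgeR adjusted p = 2.1e-06).

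The CDK inhibitors encoded at the Ink4 locus were lower in progenitor cells. Cdkn2a had 0.579, 0.752, 0.575 and 0.264 CPM in progenitor libraries, against 8.79, 16.2, 4.97 and 3.16 CPM in hormone-sensing libraries (log2 -3.78 ± 0.38 SE, edgeR adjusted p = 3.1e-05). Its neighbour Cdkn2b had 0.8295, 0.895, 1.47 and 0.791 CPM in progenitor libraries, against 9.23, 14.3, 5.24 and 5.03 CPM in hormone-sensing libraries (log2 -2.98 ± 0.38 SE, edgeR adjusted p = 0.00016). Both are low transcripts, highest in GFP- replicate 2. Cdkn1a, which encodes the CDK inhibitor p21, had a log2 fold change of -1.29 ± 0.16 SE (edgeR adjusted p = 0.00017). In the BCL2 family, 5 of 15 tested members were higher and 6 lower, against 27% and 25.6% of all genes. Bcl2, which blocks cell death, had 64.3, 57.2, 102 and 109.6 CPM in progenitor libraries, against 0.743, 0.722, 7.57 and 3.41 CPM in hormone-sensing libraries (log2 5.11 ± 0.51 SE, edgeR adjusted p = 0.00021). Bax, which promotes it, had 41.8, 37.01, 37.3 and 30.7 CPM in progenitor libraries, against 92.9, 81.03, 93.96 and 94.3 CPM in hormone-sensing libraries (log2 -1.31 ± 0.10 SE, edgeR adjusted p = 6.3e-06). Neither overlapped between the classes.

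**Figure D4:**
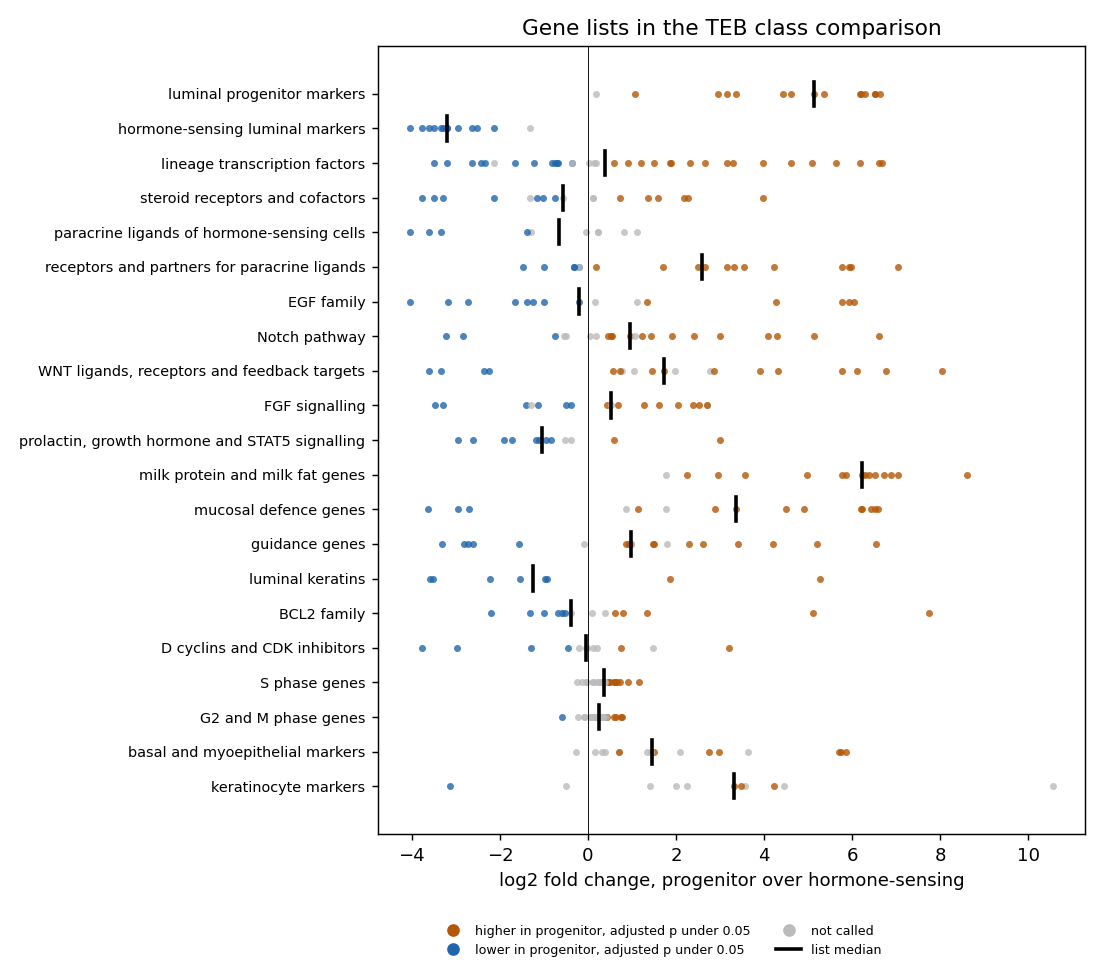
Log2 fold change, progenitor over hormone-sensing TEB cells (x axis), of the tested members of 21 gene lists (rows). Points coloured as called passed an adjusted p under 0.05, and the black bar is the list median, from 6.23 for milk genes to -3.20 for hormone-sensing markers. Lists of ligand and receptor systems spread to both sides of 0, while S phase and G2 and M phase genes have medians of 0.37 and 0.26.

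The remaining lists may be read against the background shares of 27% higher and 25.6% lower. Ion channel and transporter genes had 12 of 21 higher and 5 lower. The higher ones included Gabrp, the pi subunit of the GABA-A receptor (log2 5.37 ± 0.19 SE, edgeR adjusted p = 1.2e-07). Summed, the list overlapped, at 2267 to 2745 CPM in progenitor libraries, against 2456 to 6407 CPM in hormone-sensing libraries, with the YFP+ libraries highest. Cell junction genes had 8 of 20 higher and 5 lower (6 and 5 without YFP- replicate 2), and retinoid genes 5 of 14 higher and 5 lower, with a retinoid median of 0.23 that turned to -0.23 without YFP- replicate 2. Immediate early genes had 13 of 20 higher and 3 lower. Fos, their best-known member, had 1173, 1565, 2475 and 2326 CPM in progenitor libraries, against 439.5, 540.4, 1849 and 1909 CPM in hormone-sensing libraries. Its class effect differed between the models (1.48 in the Elf5 model, 0.34 in the PR-cre model, model difference adjusted p = 0.019), and its call in the blocked fit was lost without GFP- replicate 2 (adjusted p = 0.067). Interferon response genes had 4 of 18 higher and 11 lower. Isg15 of that list had 40.6, 57.96, 13.2 and 12.7 CPM in progenitor libraries, against 73.7, 69.9, 20.3 and 22.6 CPM in hormone-sensing libraries, so the Elf5-model libraries were the higher ones in each class (log2 -0.64 ± 0.12 SE, edgeR adjusted p = 0.0015). MHC class II genes had 3 of 8 higher and 2 lower (0 and 2 in both models, list median 1.12). Summed, the MHC class II genes had 7.95 to 10.5 CPM in progenitor libraries, against 21.5 to 27.6 CPM in hormone-sensing libraries, so the sum was lower in progenitor cells. Cholesterol synthesis genes had 2 of 19 higher and 7 lower, and oxidative phosphorylation genes 0 of 20 higher and 8 lower.

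Markers of cells outside the gate were not even between the classes. Of the 16 basal and myoepithelial markers, 7 were higher in progenitor cells and 0 lower (6 and 0 without YFP- replicate 2). Oxtr, the oxytocin receptor of myoepithelial cells, was higher in all 4 progenitor libraries, at 16.7, 13.5, 27.95 and 35.2 CPM, against 0.179, 0.197, 0.792 and 0.669 CPM in hormone-sensing libraries (log2 5.75 ± 0.23 SE, edgeR adjusted p = 1.2e-07). Trp63, which encodes the basal factor p63, had 3.36, 2.3999, 7.88 and 43.8 CPM in progenitor libraries, against 0.0513, 0.0437, 0.748 and 0.254 CPM in hormone-sensing libraries, with the highest value in YFP- replicate 2. Krt14, a basal keratin, had 5.401, 7.57, 30.998 and 267 CPM in progenitor libraries, against 0.384, 0.678, 1.01 and 1.01 CPM in hormone-sensing libraries. Of 11 tested keratinocyte markers, 3 were higher and 1 lower, with a median of 3.32 that fell to 1.03 without YFP- replicate 2. Krt1, a keratin of differentiated skin, did not pass (edgeR adjusted p = 0.42). Leukocyte markers had 2 of 8 higher, fibroblast markers 1 of 11, endothelial and pericyte markers 1 of 12 with 3 lower, and adipocyte markers 1 of 3. Summed leukocyte markers lay at 5.94 to 10.4 CPM in progenitor libraries, against 2.31 to 4.54 CPM in hormone-sensing libraries. Adipocyte markers lay at 4.94 to 6.02 CPM in progenitor libraries, against 1.47 to 5.15 CPM in hormone-sensing libraries. Fibroblast markers, chiefly collagens and Postn, lay at 42.8 to 298 CPM in progenitor libraries, highest in YFP- replicate 2, against 18.8 to 144 CPM in hormone-sensing libraries. Endothelial and pericyte markers lay at 332 to 366 CPM in progenitor libraries, against 317 to 494 CPM in hormone-sensing libraries, and most of each sum was Notch3. Of that list, Eng and Flt1 were lower in progenitor cells, Eng at 7.47, 7.36, 18.01 and 8.36 CPM in progenitor libraries, against 45.2, 55.7, 129.5 and 128 CPM in hormone-sensing libraries (log2 -3.04 ± 0.24 SE, edgeR adjusted p = 2.3e-05). Flt1 had 2.62, 3.34, 4.75 and 1.11 CPM in progenitor libraries, against 18.9, 34.8, 36.5 and 29.7 CPM in hormone-sensing libraries (log2 -3.34 ± 0.44 SE, edgeR adjusted p = 0.00052). The vessel markers Cdh5, Kdr and Cldn5 were each under 1 CPM in all 8 libraries, and the part of other cells in these values was not tested.

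A small share of genes passed the test for a different class effect in the models, which rested on 2 libraries per group. Before adjustment, 3070 of 16256 genes had an edgeR p under 0.05 in this test. Genes that did not pass are therefore not shown to be alike in the models. The difference between the class effects, Elf5 model minus PR-cre model, passed for 308 genes in the positive direction (1.89%) and 239 in the negative (1.47%). With replicate number as a block these counts were 821 and 655. Without YFP- replicate 1 they were 603 and 438, without GFP+ replicate 2 they were 139 and 116, and without YFP+ replicate 1 they were 161 and 148. The negative count was also 134 without GFP+ replicate 1 and 137 without YFP+ replicate 2. Of the 5349 agreeing genes, 248 had a called model difference in size. The 5 largest positive differences were in Dcpp3, Ly6k, Slc6a14, Rusc2 and Gcnt1, and the 5 largest negative ones in Acpp, Pcolce2, Sostdc1, Gucy1a2 and Pappa.

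Gucy1a2, a subunit of the nitric oxide-sensing guanylate cyclase, followed the reporters. It had 4.94 and 4.01 CPM in GFP+ and 39.1 and 47.7 CPM in YFP- libraries, against 54.5 and 52.7 CPM in GFP- and 6.12 and 6.66 CPM in YFP+ libraries, so both reporter-negative groups were high (difference -6.34 ± 0.23 SE, edgeR adjusted p = 1.6e-06). Gcnt1, which branches mucin-type glycans, showed the reverse, with 21.3 and 19.1 CPM in GFP+ and 3.53 and 2.03 CPM in YFP- libraries, against 1.204 and 2.08 CPM in GFP- and 10.7 and 11.3 CPM in YFP+ libraries (difference 5.59 ± 0.44 SE, edgeR adjusted p = 0.00023). Acpp, an acid phosphatase, had 2.08 and 2.16 CPM in GFP+ and 10.5 and 28.7 CPM in YFP- libraries, against 9.51 and 8.53 CPM in GFP- and 0.924 and 0.438 CPM in YFP+ libraries (difference -6.92 ± 0.72 SE, edgeR adjusted p = 0.0025). Acpp thus shared the pattern of Gucy1a2. Rusc2 was low in a single group: it had 9.01 and 13.1 CPM in GFP+ and 13.01 and 14.003 CPM in YFP- libraries, against 0.41004 and 0.197 CPM in GFP- and 21.2 and 20.7 CPM in YFP+ libraries (difference 5.84 ± 0.40 SE, edgeR adjusted p = 0.00011).

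The other members were high or absent in 1 group. Sostdc1, an antagonist of WNT and BMP signals, had 0.2701 and 0.569 CPM in GFP+ and 12.6 and 20.96 CPM in YFP- libraries, against 0.538 and 0.131 CPM in GFP- and 0.176 and 0.0922 CPM in YFP+ libraries. Pcolce2, a procollagen processing enhancer, and Pappa, a protease that frees IGFs, were also high in the YFP- libraries alone. Pcolce2 had 13.99 and 13.9 CPM in YFP- libraries and at most 0.264 CPM in the other 6 libraries. Pappa had 10.2 and 12.3 CPM in YFP- libraries and at most 0.513 CPM in the other 6. The YFP- libraries are the ones with the highest basal and keratinocyte markers, and the part of these markers in the 3 genes was not tested. Slc6a14, an amino acid transporter, was at 0 in both GFP- libraries, Ly6k at 0 in both YFP- libraries and Dcpp3 at 0 in both GFP- libraries, so their fitted differences depend on the prior count. Dcpp3 belongs to a cluster of near-identical genes among which reads may be split.

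Luminal libraries of ducts from the same models (8 libraries, 4 per class) showed how far the class difference is shared outside TEBs. Of the 5349 agreeing genes, 5348 could be tested there, 4273 were called in the same direction in ducts and 47 in the opposite one. By direction, 2063 of 2667 (77.4%) were higher there too and 2210 of 2681 (82.4%) lower. Of all 16191 genes tested in both tissues, 23.3% were called higher and 24% lower in ducts, 47.3% in all. The class effect in TEBs minus that in ducts passed for 299 of 16981 genes in the positive direction (1.76%) and 586 in the negative (3.45%), 5.21% in all. Luminal GFP- duct replicate 2 holds far more basal and keratinocyte transcripts (summed markers of 5451 and 2907 CPM) than the other hormone-sensing duct libraries. Without it and YFP- TEB replicate 2 the counts were 487 and 611. They were 391 and 425 with upper-quartile scaling, and 842 and 842 with DESeq2, so the excess of negative calls depended on the setting. Leaving out a single library gave 156 to 443 positive and 305 to 697 negative calls. The lowest counts came without GFP+ TEB replicate 1 (156 and 305), YFP+ TEB replicate 2 (161 and 342) and GFP- TEB replicate 2 (169 and 350). The luminal progenitor markers had a median log2 fold change of 5.14 in TEBs, against 4.47 in ducts, and the 13 hormone-sensing markers had -3.20 in TEBs, against -4.04 in ducts. These medians were not tested, and none of the 13 hormone-sensing markers passed the test of the difference itself. Of the 23 genes named for the difference and called, 8 stayed called under every one of 22 alternative settings.

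Some genes changed sides between the tissues. Itgb3, the integrin beta 3 chain CD61 that marks luminal progenitors of the adult mouse gland, had 32.4, 28.7, 39.4 and 34.99 CPM in progenitor TEB libraries, against 30.5, 53.5, 84.98 and 49.2 CPM in hormone-sensing TEB libraries. In ducts it had 162, 132, 68.3 and 47.1 CPM in progenitor libraries, against 4.003, 18.3, 8.89 and 2.79 CPM in hormone-sensing libraries. The classes overlapped in TEBs, where neither model passed alone, and not in ducts. Its log2 fold change was -0.67 in TEBs, against 3.50 in ducts (difference -4.19 ± 0.62 SE, edgeR adjusted p = 0.0031). Ramp1, a partner protein of calcitonin-family receptors, had 6.21, 6.996, 13.3 and 10.6 CPM in progenitor TEB libraries, against 18.1, 19.9, 30.2 and 33.7 CPM in hormone-sensing TEB libraries. In ducts it had 40.5, 52.6, 50.3 and 52.9 CPM in progenitor libraries, against 8.79, 7.49, 16.9 and 13.1 CPM in hormone-sensing libraries, so that the classes did not overlap in either tissue and lay in opposite orders (difference -3.64 ± 0.22 SE, edgeR adjusted p = 4.4e-06). Fgfr1, an FGF receptor, likewise had a log2 fold change of -0.50 in TEBs, against 0.93 in ducts (difference -1.46 ± 0.12 SE, edgeR adjusted p = 3.8e-05), and Elf3 -0.70 in TEBs, against 0.47 in ducts (difference -1.20 ± 0.16 SE, edgeR adjusted p = 0.001). These 4 differences passed under 22 of 22 alternative settings.

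Further genes differed in the size of the class effect. Thsd7a, a thrombospondin-repeat protein, had 1.81, 2.89, 5.47 and 1.53 CPM in progenitor TEB libraries, against 22.4, 21.4, 38.2 and 31.7 CPM in hormone-sensing TEB libraries. In ducts it had 1.47, 1.99, 5.29 and 4.36 CPM in progenitor libraries, against 1.23, 1.85, 3.81 and 6.48 CPM in hormone-sensing libraries, which overlapped (difference -3.31 ± 0.46 SE, edgeR adjusted p = 0.0014). In ducts Krt6a, given above for TEBs, had 6.001, 5.54, 6.75 and 3.72 CPM in progenitor libraries, against 195, 290.4, 312 and 221 CPM in hormone-sensing libraries, a wider gap than in TEBs (difference 1.99 ± 0.33 SE, edgeR adjusted p = 0.0043). Slc24a3, a potassium-dependent sodium and calcium exchanger, had a log2 fold change of -1.45 in TEBs, against -5.31 in ducts (difference 3.83 ± 0.73 SE, edgeR adjusted p = 0.009). The netrin receptor Neo1 had 1.51 in TEBs, against 0.86 in ducts (difference 0.62 ± 0.14 SE, edgeR adjusted p = 0.018). These 4 also passed under 22 of 22 settings.

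Calls on other genes named for this difference were lost under at least 1 alternative setting. Ptprn, a protein of secretory granules, had 6.66, 11.6, 3.598 and 0.923 CPM in progenitor TEB libraries, against 118, 170.2, 17.1 and 7.22 CPM in hormone-sensing TEB libraries, with the GFP- libraries highest (difference -3.50 ± 0.79 SE, edgeR adjusted p = 0.026, not passed under 10 of 22 settings). Ceacam10 had a difference of -3.86 ± 0.97 SE (edgeR adjusted p = 0.038, 0.073 without GFP- duct replicate 2). In the positive direction, Adcy1 (adenylyl cyclase), Htra1 (a secreted serine protease) and Med12l had differences of 5.18 ± 1.04 SE, 5.14 ± 1.24 SE and 5.04 ± 1.21 SE (edgeR adjusted p = 0.013, 0.034 and 0.032). Among duct libraries Adcy1 and Htra1 were highest in GFP- replicate 2, at 12.2 and 38.9 CPM, and their differences were 3.77 and 3.36 without that library. Ptprz1, a receptor phosphatase, had 10.2, 12.4, 6.49 and 9.26 CPM in progenitor TEB libraries, against 0, 0, 0.06603 and 0 CPM in hormone-sensing TEB libraries, and 131, 114, 27.5 and 28.3 CPM in progenitor duct libraries, against 1.99, 5.13, 1.69 and 2.04 CPM in hormone-sensing duct libraries. Because 3 of 4 hormone-sensing TEB libraries are at 0, its fitted difference depends on the prior count. With replicate number as a block, the adjusted p of the difference was 0.11 for Ceacam10, 0.086 for Adcy1, 0.06 for Htra1, 0.094 for Med12l and 0.065 for Ptprz1. Over the 22 alternative settings, the call was lost under 15 for Ceacam10, 13 for Htra1, 12 for Med12l, and 1 each for Adcy1 and Ptprz1.

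Differences in the size of the class effect were also seen in genes described above. Satb1 had 40.2, 47.2, 43.997 and 46.3 CPM in progenitor duct libraries, against 0.8397, 10.2, 4.01 and 2.49 CPM in hormone-sensing duct libraries. The value of 10.2 CPM was in GFP- duct replicate 2, the library rich in basal and keratinocyte transcripts. Hormone-sensing duct libraries kept a mean of 9.89% of the progenitor duct level, and 5.50% without that library. The progenitor values of ducts and TEBs ran over a like range, while every hormone-sensing TEB library lay below every hormone-sensing duct library (difference 3.54 ± 0.77 SE, edgeR adjusted p = 0.023). Igf1r, Ghr and Unc5b also had positive differences (2.64 ± 0.69 SE, 1.49 ± 0.37 SE and 2.25 ± 0.57 SE, edgeR adjusted p = 0.048, 0.039 and 0.041). With replicate number as a block these 4 genes had adjusted p-values of 0.054, 0.085, 0.062 and 0.068. Their calls were lost under 8 (Satb1), 15 (Igf1r), 14 (Ghr) and 16 (Unc5b) of 22 settings. Cish and Cdkn1a had negative differences (-0.97 ± 0.21 SE and -1.35 ± 0.35 SE, edgeR adjusted p = 0.018 and 0.044, and 0.055 and 0.087 with the block), whose calls were lost under 1 and 19 of 22 settings. So did Notch1 (-0.98 ± 0.26 SE) and Itga2 (-0.91 ± 0.24 SE), while Tgfa had a positive one (0.84 ± 0.22 SE). Their edgeR adjusted p-values were 0.045, 0.049 and 0.039, and 0.099, 0.071 and 0.078 with the block, and the calls were lost under 18, 16 and 13 of 22 settings.

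**Figure D5:**
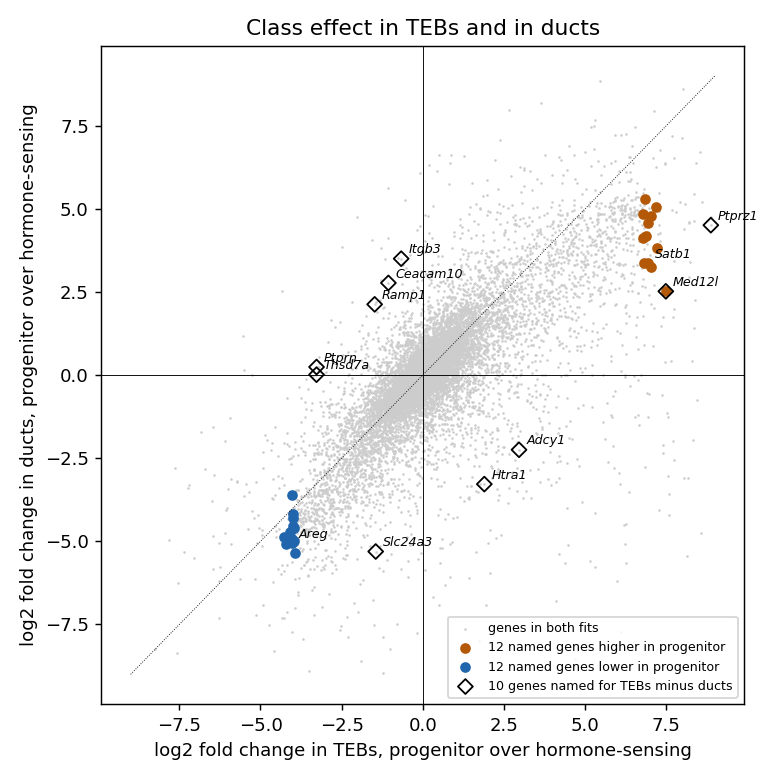
Log2 fold change of progenitor over hormone-sensing luminal cells in TEBs (x axis) and in ducts (y axis), 4 against 4 libraries per tissue; each point is 1 gene and 23 genes beyond 9 on either axis are not drawn. The 12 named progenitor genes lie below the dotted line of equal change, with log2 values of 6.77 to 7.49 in TEBs. They were chosen for their size in TEBs, which favours that side, and of the 12 only Med12l and Satb1 had a called tissue difference. Diamonds mark the 10 genes named for the tissue difference, among them Itgb3, Ceacam10 and Ramp1 at the upper left.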

How the data were processed

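Per the labels' protocols, Illumina's TruSeq v2 RNA kit was used, which does not mark strand, so a gene and its antisense partner cannot be told apart. Per the submitters' processing notes, the deposited values are raw counts per gene from featureCounts on mm10; the aligner is not given in the sources used here. Gene IDs were paired with symbols through RefSeq (GRCm38.p6) for 25275 genes and GENCODE for 18; genes without a symbol held 1.22% of the counts.

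Counts were tested with edgeR 4.0.16 (quasi-likelihood F-test, TMM scaling, R 4.3.3) after filterByExpr (minimum count 10, minimum total 15), with the mouse model as a block and adjusted p-values over all genes. Single models and the model difference were contrasts of the group means over the luminal TEB libraries. TEBs minus ducts came from a fit of all luminal libraries with a block for each model and tissue. In that fit the class effect of each tissue was shared by the models. SE is the log2 fold change divided by the square root of F. Scripts were tested on simulated data. CPM values use TMM factors over all 24 libraries. The members and gene lists were chosen with earlier results of these data known. Genes were named as the 12 furthest in each direction among agreeing genes without overlap and with at least 10 CPM in the higher class, and as the 5 furthest for each difference. Other genes came from the gene lists.

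Same-numbered libraries of 1 model deviated together from their group means (correlations of 0.38 and 0.12 in TEBs, and 0.16 and 0.15 in ducts, in the Elf5 and PR-cre models), so the replicate number was also fitted as a block, and each library was left out in turn. DESeq2 1.42.0, other scaling and no low-count filter were further alternatives. Replicates differed by more than counting noise. Intervals were not computed, and the limit of 3 counts covers counting error only.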

Additional observations from a re-analysis of the deposited data

Results flagged for a closer look

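Of 262 groups of 4 libraries checked with Dixon's test at 95%, 24 held a library far from the other 3; chance alone flags about 1 in 20 groups. In YFP- replicate 2, 10 values stood apart. Krt5 was at 453 CPM, Krt14 at 267 CPM, Krt10 at 204 CPM, Krt1 at 96.8 CPM and Trp63 at 43.8 CPM, each far above the other progenitor libraries. The summed basal and myoepithelial markers (1288 CPM) and keratinocyte markers (614.6 CPM) stood apart with them. Jag2 was highest (11.9 CPM), Igf1 highest (1.11 CPM) and R3hdml lowest (1.11 CPM) in the same library. In YFP- replicate 1, Notch3 (308 CPM), Cdkn2b (1.47 CPM), Eng (18.01 CPM) and the summed endothelial and pericyte markers (366 CPM) were the highest progenitor values. In GFP+ replicate 2, Fgfr1 was highest (180.0 CPM).

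In YFP+ replicate 1, the hormone-sensing values of Med12l (0.264 CPM), Tgfb2 (1.08 CPM), St8sia6 (0.924 CPM) and Hey2 (0.220 CPM) were the highest. YFP+ replicate 2 was lowest for Epgn (69.2 CPM). GFP- replicate 1 was highest for Ghr (9.10 CPM), and GFP- replicate 2 was highest for Lalba (1.90 CPM) and Hes1 (111 CPM) and lowest for Bax (81.0 CPM).

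The class effect differed between the models by a test of the difference in 17 named genes (Elf5 model minus PR-cre model, log2). Positive differences were Dcpp3 13.72, Ly6k 7.41 and Slc6a14 6.28, for which a group at 0 makes the fitted value depend on the prior count, and Rusc2 5.84, Gcnt1 5.59, Lgr6 2.80, Fos 1.13, Notch1 0.91 and Esr1 0.91. Negative differences were Acpp -6.92, Pcolce2 -6.58, Sostdc1 -6.57, Gucy1a2 -6.34, Pappa -6.22, Socs2 -1.64, Dusp6 -1.31 and Robo1 -1.20.

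The class effect also differed between tissues (TEBs minus ducts, log2). Positive differences were Adcy1 5.18, Htra1 5.14, Med12l 5.04, Ptprz1 4.32, Slc24a3 3.83, Satb1 3.54, Igf1r 2.64, Unc5b 2.25, Krt6a 1.99, Ghr 1.49, Tgfa 0.84 and Neo1 0.62. Negative differences were Itgb3 -4.19, Ceacam10 -3.86, Ramp1 -3.64, Ptprn -3.50, Thsd7a -3.31, Fgfr1 -1.46, Cdkn1a -1.35, Elf3 -1.20, Notch1 -0.98, Cish -0.97 and Itga2 -0.91.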

How the results depend on the processing

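Leaving out each library in turn gave 3674 to 4006 higher and 3674 to 4112 lower genes in the class comparison, and 2126 to 2461 higher and 2163 to 2745 lower genes in both models. The class counts stayed within 1.5 times under every alternative run. The model difference gave 139 to 603 positive and 116 to 438 negative calls without 1 library, 821 and 655 with replicate number as a block, and 674 and 565 with DESeq2. TEBs minus ducts gave 156 to 443 positive and 305 to 697 negative calls without 1 library, and 487 positive without both libraries rich in keratinocyte transcripts. It gave 842 positive and 842 negative calls with DESeq2, and 391 and 425 with upper-quartile scaling. The cause was not tested. Of 113 class calls on named genes, 107 stayed called under every alternative, as did 9 of 17 model differences and 8 of 23 tissue differences; the blocked values of the calls that the block changed stand beside those results, and the block changed no other named call. Uncalled genes changed sign without 1 library, with log2 ranges over the libraries left out of -0.011 to 0.082 for Notch3, -0.040 to 0.16 for Mcm2, -0.73 to 1.80 for Igf1, -0.30 to 0.56 for Cxcl12, -0.017 to 0.20 for Ccnd1 and -0.084 to 0.37 for Lypd3. Depth limits statements on genes under about 0.079 CPM, where 3 counts is the limit. With 2 libraries per group, single-model and difference calls rest on a spread shared across groups.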
